A study of Mus musculus with 6 samples.

Results

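Opposite-strand genes are mouse genes named for the gene on the other strand of the same stretch of DNA, with the ending os and, where there are several, a digit. The members described here were all gene names in the expression tables that end in os, or in os and 1 digit, and whose remaining name is itself a gene name in the tables. That rule took no measured value into account. It gave 294 gene IDs, with 292 names, of the 46517 gene IDs listed, and 249 partner genes. The expression data came from E14TG2a, a wild-type line of mouse embryonic stem cells, sequenced at 3 stages of neuronal differentiation with 2 libraries each. The mESC libraries came from stem cells kept on gelatin with serum and the cytokine LIF, without feeder cells. The NPC libraries came from neuronal progenitors made from that line by a published stem-cell-to-neuron protocol, and the NC libraries were taken as the remaining stage that the design names, glutamatergic pyramidal neurons. All 3 groups share the line and its wild-type genotype, the whole series rests on that 1 line, and no day of differentiation is given. The labels speak of biological replicates without saying how the cultures were separated, so p-values measure the spread between these libraries only.

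RNAs from the opposite strand fall into a few arrangements. Some start back to back with the partner at a shared promoter, some meet the partner's tail, and some lie within it. Most are long RNAs without a known protein, many of them lie beside genes for developmental regulators such as the Hox genes, and several have been studied as regulators of their partner or as hosts of microRNAs. A few code for proteins and carry the name for their position alone.

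By biotype in GENCODE vM21, 254 of the 294 were antisense RNAs, 12 processed transcripts, 11 lincRNAs and 10 protein-coding genes, and the remaining biotypes had 1 or 2 members each. The positions in the tables put 293 on the strand opposite to the partner and 1, Cep112os2, on the same strand. In 124 pairs the 5′ ends faced each other head to head, in 126 the opposite-strand gene lay inside the body of the partner, in 34 the 3′ ends met tail to tail, and in 9 the partner lay inside the opposite-strand gene. The bodies overlapped in 238 pairs.

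The starts of some pairs lie close together, and 4 such pairs are shown. The lines give, 5′ to 3′ on the strand of the opposite-strand gene, the bases between the 2 annotated 5′ ends in capitals and the first 50 bases of the opposite-strand RNA in lower case, from RefSeq on GRCm38.p6. Lhx1os (chr11:84525536-84525709, plus strand), Map2k3os (chr11:60931818-60932032, minus strand) and Wt1os (chr2:105126461-105126528, minus strand) are shown because each changed with its partner between mESC and NPC, and Atad3aos (chr4:155761094-155761227, plus strand) because it changed against its partner.
Lhx1os: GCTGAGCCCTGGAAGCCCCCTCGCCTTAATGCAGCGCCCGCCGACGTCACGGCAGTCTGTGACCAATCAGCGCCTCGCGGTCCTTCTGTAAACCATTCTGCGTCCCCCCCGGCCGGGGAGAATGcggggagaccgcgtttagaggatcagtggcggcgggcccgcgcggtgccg
Map2k3os: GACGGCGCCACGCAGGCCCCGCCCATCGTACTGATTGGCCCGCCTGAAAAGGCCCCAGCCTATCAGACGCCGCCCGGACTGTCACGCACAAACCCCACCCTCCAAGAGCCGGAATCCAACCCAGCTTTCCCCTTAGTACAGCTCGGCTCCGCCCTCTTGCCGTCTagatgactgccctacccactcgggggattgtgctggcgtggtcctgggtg
Wt1os: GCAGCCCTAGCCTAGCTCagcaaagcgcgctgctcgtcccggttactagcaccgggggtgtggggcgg
Atad3aos: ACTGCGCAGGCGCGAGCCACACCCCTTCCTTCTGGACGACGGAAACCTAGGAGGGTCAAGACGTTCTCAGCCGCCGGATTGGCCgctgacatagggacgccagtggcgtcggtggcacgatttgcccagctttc
The stretch in capitals was 124 bases for Lhx1os, 165 for Map2k3os, 18 for Wt1os and 84 for Atad3aos. It held 12, 14, 0 and 8 CpG dinucleotides, in the same order. On either strand the 4 stretches held no TATAAA. The motif CCAAT occurred 1 time in each of the stretches of Lhx1os, Map2k3os and Atad3aos, and GGGCGG occurred 3 times in that of Map2k3os alone.

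The deposited tables give abundance as TPM, a share of transcripts, which is scaled for gene length and so can be compared between genes. They hold no counts, and aligned bases estimated from the tables ranged from 1.57 to 2.27 Gb per library. As a check of the labels, the summed TPM of 4 pluripotency markers was 3574 and 3674 in the mESC libraries and at most 3.79 in the other 4, and that of 5 neuron markers was 2920 and 2627 in NC against 89.3 and 122 in mESC. The NC libraries differed from each other. Neural progenitor markers summed to 1099 in NC replicate 1 and 341 in NC replicate 2, and astrocyte markers to 157 and 48.4. Of the glutamatergic markers Slc17a6 was at 28.9 and 21.6 TPM in NC, Neurod6 at 14.7 in replicate 1 and listed at 0 in replicate 2, and Tbr1 at 0.300 and 0.502. Slc17a7, the remaining glutamatergic marker, was at 3.21 and 1.69 TPM in NC, beside 2.86 and 2.07 in mESC. The 3 GABAergic markers summed to 224 and 256 in NC. Fibroblast and smooth muscle markers, all 5 at 1 TPM or more, summed to 618 and 945 in NC against 31.0 and 62.7 in NPC and 118 and 77.8 in mESC. In such bulk RNA fewer cells of a type and less RNA per cell cannot be told apart.

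Opposite-strand genes were expressed at low levels. Of the 294, 57 were listed at 0 in all 6 libraries, 121 were above 0 without reaching the filter of at least 1 TPM in at least 2 libraries, and 116 passed it and were tested. The untested genes had means over the 6 libraries of at most 0.838 TPM. Among the tested genes the median abundance was 0.733 TPM in mESC, 2.21 in NPC and 2.71 in NC. Their partners had medians of 16.7, 30.6 and 39.7 TPM, and all 20232 tested genes 10.5, 13.8 and 15.7 TPM. Of the 111 pairs with both genes tested, the opposite-strand gene had the higher stage mean in 11 pairs in mESC, 9 in NPC and 7 in NC.

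The member of highest mean abundance was Hoxb5os, opposite the homeobox gene Hoxb5, followed by Lhx1os. The next 6 by mean, which include Brip1os (described with its partner further on), were expressed at every stage. Slc7a6os, a protein-coding gene opposite the amino acid transporter Slc7a6, was at 70.3 and 69.9 TPM in mESC, 48.4 and 43.3 in NPC, and then 50.0 and 44.3 in NC. Epb4.1l4aos, a lincRNA opposite a gene for a band 4.1 family protein, was at 73.8 and 67.8, 48.9 and 56.5, and 42.1 and 34.7 TPM in that order. Wdr83os, which codes for a small membrane protein, stayed between 28.1 and 41.7 TPM in all 6 libraries. Cebpzos, also protein-coding, was at 41.3 and 34.6 TPM in mESC and between 15.3 and 20.4 in the other 4 libraries. Rab26os, opposite the gene of the vesicle GTPase Rab26, was at 33.2 and 18.7, 28.4 and 31.9, and 18.2 and 13.2 TPM, above its partner in every library.

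**Figure D1:**
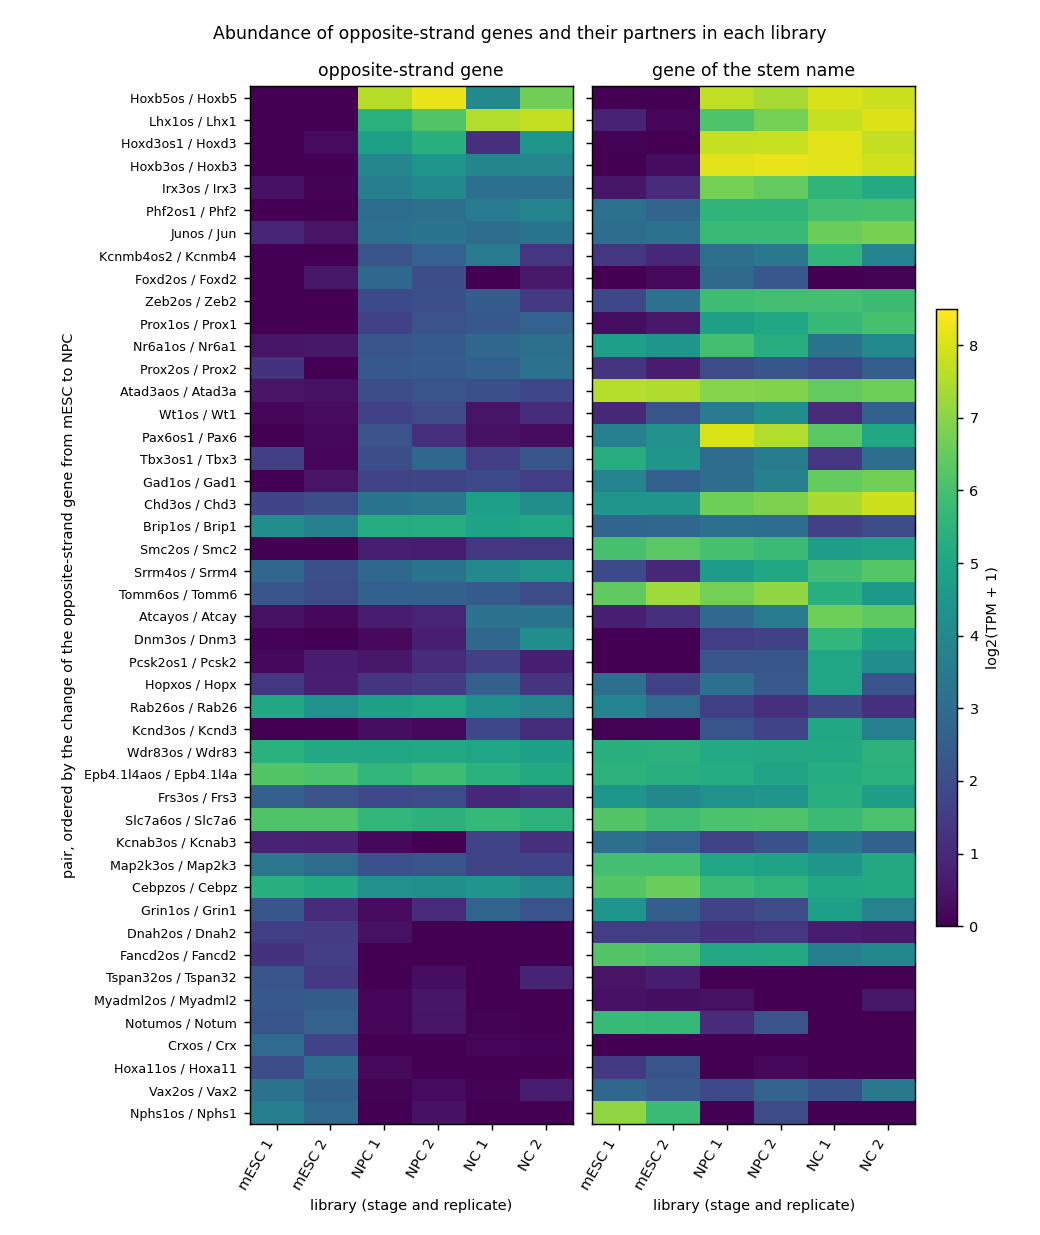
Heat map of log2(TPM + 1) in each of the 6 libraries for 46 of the 47 opposite-strand genes named by rule (left) and their partners (right), 1 row per pair, ordered by the change of the opposite-strand gene from mESC to NPC. The first rows, from Hoxb5os to Hoxb3os, are dark in both mESC libraries on both sides, and the bottom rows, with Nphs1os and Vax2os, are bright in mESC alone on the left.

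The step from mESC to NPC raised more opposite-strand genes than it lowered. Of the 116 tested, 56 were called by limma, at a Benjamini-Hochberg adjusted p under 0.05 over all tested genes, and 42 of them were higher and 14 lower in NPC. That is 48.3% of the members tested, where 40.0% of all tested genes were called, 26.0% higher and 14.0% lower. The split of members was 42 higher and 15 lower with median-of-ratios scaling, and 33 higher and 17 lower with quantile normalization. The median log2 fold change was 0.66 over the opposite-strand genes and 0.38 over their partners, beside 0.18 over all tested genes. Because a member passes the filter through the stages where it is expressed, these shares describe the tested members and not all 294. Without NPC replicate 2 the count was 30, and without mESC replicate 2 it was 36.

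Opposite-strand genes of homeobox partners, most of which encode DNA-binding regulators of body plan and cell identity, were the group with the highest share of calls. Of 26 such genes 14 were tested, 10 of these rose, 3 fell, and Hopxos was not called. Hoxb5os (chr11:96291024-96306910, minus strand) was at 0 in both tables of mESC and had 192 and 304 TPM in NPC (adjusted p = 0.000484). Its partner Hoxb5, which lies within its body, was at 0 and 0.0233 TPM in mESC and 204 and 166 in NPC, so neither gene had overlapping groups. Hoxb3os (chr11:96343072-96354691, minus strand) was likewise listed at 0 in both mESC libraries and reached 14.2 and 21.2 TPM in NPC (adjusted p = 0.000117). For Hoxb3os, 76.2% of its exonic bases lie within exons on the other strand, and Hoxb3 was at 274 and 295 TPM in NPC.

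Lhx1os (chr11:84525660-84535831, plus strand) starts 124 bases from Lhx1, a LIM homeobox gene of early head and motor neuron development, and shares no exonic base with any other gene. It was at 0 in both tables of mESC and had 42.4 and 71.5 TPM in NPC, with adjusted p = 3.89e-05. Lhx1 itself was at 0.766 and 0.0956 TPM in mESC and 70.9 and 104 in NPC. Hoxd3os1 (chr2:74703248-74716130, minus strand) went from 0 and 0.191 TPM to 27.7 and 41.3 TPM, a log2 fold change of 5.0 ± 0.95 (SE; adjusted p = 0.0071). Irx3os (chr8:91800415-91807539, plus strand), opposite an Iroquois gene of neural patterning, went from 0.342 and 0.0281 TPM to 11.5 and 15.2 TPM (3.60 ± 0.27; adjusted p = 0.000206). In each of these pairs every NPC library was above every mESC library.

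Lower levels were reached by the opposite-strand genes of Prox1, Prox2, Zeb2 and Pax6. Prox1os, opposite a regulator of progenitors leaving the cell cycle, and Zeb2os, opposite a neural crest and neuronal repressor, were at 0 in both tables of mESC and had 2.20 and 3.55 TPM and 2.72 and 3.18 TPM in NPC (adjusted p = 0.00268 and 0.00641). Prox2os rose from 1.37 and 0 TPM to 4.11 and 4.49 TPM (1.78 ± 0.45, adjusted p = 0.0199). Exons on the other strand hold 56.8% of the exonic bases of Prox2os and 32.8% of those of Zeb2os. Pax6os1, opposite the neural progenitor gene Pax6, rose from 0 and 0.123 TPM to 3.47 and 1.27 TPM (1.59 ± 0.35, adjusted p = 0.0129). The 12 untested homeobox members include both Dlx6os1 IDs, Emx2os, Otx2os1 and Six3os1. Among the genes named here, the calls that 1 library could end were those of Hoxd3os1 (adjusted p of 0.0599 to 0.0804 without mESC replicate 1, mESC replicate 2 or NPC replicate 2), Zeb2os (0.0516 to 0.0598 without the same libraries), Prox2os (0.0861 to 0.111 without mESC replicate 2, NPC replicate 1 or NPC replicate 2) and Pax6os1 (0.0728 to 0.0837 without mESC replicate 1 or mESC replicate 2).

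The 3 homeobox members that fell were at their highest in stem cells. Vax2os (chr6:83692806-83712201, minus strand), opposite a homeobox gene of the ventral eye, was at 8.20 and 5.18 TPM in mESC but at 0.0262 and 0.198 TPM in NPC, a log2 fold change of -2.77 ± 0.33 (adjusted p = 0.00113). Hoxa11os (chr6:52244393-52249799, plus strand), opposite a posterior Hox gene, was at 3.05 and 7.27 TPM in mESC but at 0.174 and 0 in NPC (-2.42 ± 0.37, adjusted p = 0.00298). Crxos, a protein-coding gene opposite the photoreceptor regulator Crx, was at 6.90 and 2.30 TPM in mESC while both NPC tables list it at 0 (adjusted p = 0.00524), and Crx was listed at 0 in all 6 libraries.

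Among the 24 tested members opposite other transcription and chromatin factors, 14 rose and 1 fell from mESC to NPC. Phf2os1, opposite the gene of a histone demethylase family member, was at 0 in both tables of mESC and had 7.45 and 7.72 TPM in NPC (adjusted p = 0.000239). Junos, opposite the AP-1 subunit Jun, rose from 0.845 and 0.363 TPM to 7.56 and 8.65 TPM (2.52 ± 0.28, adjusted p = 0.000807). Foxd2os, 383 bases from the start of the forkhead gene Foxd2, rose from 0 and 0.473 TPM to 6.22 and 3.00 TPM (2.15 ± 0.40, adjusted p = 0.00628), a call lost without mESC replicate 1 (adjusted p = 0.06). Nr6a1os, inside the gene of an orphan nuclear receptor that represses pluripotency genes, rose from 0.409 and 0.472 TPM to 3.70 and 4.29 TPM (1.79 ± 0.25, adjusted p = 0.00212). Wt1os rose from 0.114 and 0.179 TPM to 2.22 and 2.84 TPM (1.62 ± 0.29, adjusted p = 0.00529). Chd3os, a protein-coding gene opposite a subunit of the NuRD remodelling complex, rose from 2.43 and 3.11 TPM to 8.55 and 9.65 TPM (1.42 ± 0.28, adjusted p = 0.00755, and 0.0573 to 0.0693 without mESC replicate 1 or NPC replicate 2). Cebpzos was the member that fell (-0.99 ± 0.20, adjusted p = 0.00911, and 0.0582 to 0.0754 without mESC replicate 1, NPC replicate 1 or NPC replicate 2).

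Members opposite signalling and receptor genes had more falls than rises, 5 against 3 of 16 tested. Nphs1os (chr7:30462164-30465591, minus strand), inside the gene of the cell-adhesion protein nephrin, went from 11.6 and 6.42 TPM to 0 and 0.339 TPM (-3.06 ± 0.33, adjusted p = 0.000778). Notumos (chr11:120659157-120661815, plus strand), opposite the gene of a secreted enzyme that inactivates Wnt ligands, went from 3.67 and 5.44 TPM to 0.119 and 0.401 TPM (-2.13 ± 0.27, adjusted p = 0.00156). Map2k3os, opposite a kinase that activates p38, went from 9.34 and 7.03 TPM to 3.39 and 3.89 TPM (-0.97 ± 0.25, adjusted p = 0.0233). Nphs1 and Notum fell as well, from 134 and 54.1 TPM to 0 and 2.96 TPM (adjusted p = 0.0015) and from 51.7 and 49.3 TPM to 1.10 and 3.48 TPM (adjusted p = 0.000438). Exons of the partner hold 44.6% of the exonic bases of Nphs1os and 26.6% of those of Notumos, so without the strand setting reads of the partner cannot be told apart from theirs there. The call of Map2k3os was lost without mESC replicate 1, NPC replicate 1 or NPC replicate 2 (adjusted p of 0.0863 to 0.133), and that of Tspan32os, which fell from 3.75 and 1.70 TPM to 0 and 0.249 TPM (adjusted p = 0.0175), without the same libraries (0.0691 to 0.102).

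In the other groups the changes were fewer relative to the members tested. Of 26 members opposite neuronal, cytoskeletal or membrane genes 6 rose and 3 fell, and of 36 opposite genes of metabolism, RNA handling, genome maintenance and other functions 9 rose and 2 fell. Kcnmb4os2, opposite an accessory subunit of a potassium channel, was at 0 in both tables of mESC and had 3.51 and 5.37 TPM in NPC (adjusted p = 0.0259, and 0.0845 to 0.157 when 1 of these 4 libraries was left out). Dnah2os, inside a dynein heavy chain gene, fell from 1.98 and 1.87 TPM to 0.291 and 0 TPM (-1.36 ± 0.24, adjusted p = 0.00544). Myadml2os fell from 4.1 and 4.75 TPM to 0.0936 and 0.415 TPM (-2.12 ± 0.25, adjusted p = 0.00114). Exons on the other strand hold 49.0% of the exonic bases of Myadml2os, 36.3% of those of Dnah2os and 34.2% of those of Kcnmb4os2. Fancd2os, a protein-coding gene opposite the DNA repair gene Fancd2, was at 1.39 and 1.89 TPM in mESC and listed at 0 in the other 4 libraries (adjusted p = 0.00401 for NPC against mESC). Of the 9 tested protein-coding members 2 rose and 4 fell, Slc7a6os among them (-0.60 ± 0.14, adjusted p = 0.0166, and 0.0506 to 0.142 when an mESC or NPC library was left out).

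From NPC to NC few members were called. Of the 116, 15 were called, 11 higher and 4 lower in NC, which is 12.9% of the members where 25.3% of all tested genes were called, 15.2% higher and 10.1% lower. That split moved to 9 higher and 7 lower with median-of-ratios scaling and turned to 7 higher and 9 lower with quantile normalization. The median log2 fold change was 0.21, beside 0.22 over their partners and 0.11 over all tested genes. Without the variance trend 23 members were called. Members were of lower abundance than tested genes as a whole, where the pseudocount shrinks changes more. The part of this in the count of 15 was not tested. This count rests on the NPC libraries, since 1 member was called without NPC replicate 1, when 309 of all tested genes were called, and 6 without NPC replicate 2. It was 9 when either mESC library was left out and 10 without NC replicate 1, and 7 when the mESC libraries were left out of the fit.

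Of the 11 members that rose in NC, 6 lay opposite genes of neuronal, cytoskeletal or membrane function, a group of 26 with 0 called lower. Atcayos (chr10:81194609-81210877, plus strand), opposite the brain gene Atcay, was at 0.617 and 0.855 TPM in NPC and 8.51 and 8.61 in NC (2.46 ± 0.25, adjusted p = 0.00323), and stayed called whichever of the 6 libraries was left out. Dnm3os (chr1:162217623-162225550, plus strand), a host of microRNAs inside an intron of the dynamin gene Dnm3, went from 0.152 and 0.653 TPM to 6.41 and 17.9 TPM (3.10 ± 0.46, adjusted p = 0.00683). Dnm3os shares no exonic base with Dnm3, which rose from 1.95 and 2.15 TPM to 49.0 and 27.4 TPM. The NC library with more Dnm3os was replicate 2, which had less Dnm3 and a higher sum of the fibroblast and smooth muscle markers. Of those markers Col3a1, Acta2 and Tagln were higher in replicate 2. Col1a1 went the other way, at 93 and 55.7 TPM in NC replicates 1 and 2, as did Lum, at 7.76 and 3.17. The part of fibroblast and smooth muscle cells in the result was not tested. Lhx1os rose again, from 42.4 and 71.5 TPM to 182 and 212 TPM (1.82 ± 0.27, adjusted p = 0.00656), with Lhx1 at 216 and 263 TPM in NC. Without NPC replicate 1 the adjusted p was 0.0742 for Dnm3os and 0.0583 for Lhx1os.

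Further members rose from NPC to NC, with partners of different kinds. Kcnab3os, inside a potassium channel subunit gene, rose from 0.143 and 0 TPM to 2.37 and 1.32 TPM (1.39 ± 0.27, adjusted p = 0.0148). Kcnd3os, opposite the gene of a voltage-gated potassium channel, rose from 0.256 and 0.140 TPM to 2.61 and 1.17 TPM (1.23 ± 0.30, adjusted p = 0.0292). Grin1os, inside the gene of the obligatory NMDA receptor subunit, rose from 0.183 and 1.00 TPM to 5.68 and 3.56 TPM (1.84 ± 0.47, adjusted p = 0.0337), and 45.2% of its exonic bases lie in exons of Grin1. Chd3os rose from 8.55 and 9.65 TPM to 26.9 and 17.4 TPM (1.17 ± 0.28, adjusted p = 0.026). Srrm4os, opposite the neuronal splicing regulator Srrm4, rose from 6.35 and 8.99 TPM to 15.3 and 20.8 TPM (1.14 ± 0.33, adjusted p = 0.0479). In each of these 5 the NC libraries were above the NPC libraries. All 5 calls were lost when either NPC library was left out, and those of Chd3os, Kcnd3os and Srrm4os also when either mESC library was, with adjusted p of 0.0871 to 0.094 for Kcnab3os, 0.0633 to 0.14 for Kcnd3os, 0.086 to 0.204 for Grin1os, 0.0594 to 0.171 for Chd3os and 0.0613 to 0.262 for Srrm4os. Grin1os and Srrm4os also lost it when either NC library was left out and Chd3os without NC replicate 1, within the same ranges.

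The 4 members that fell from NPC to NC had each risen from mESC to NPC. Their highest stage mean was thus in NPC, and 3 are given here. The NPC libraries also had the highest sums of endoderm markers, and the part of such cells in these values was not tested. Foxd2os went from 6.22 and 3.00 TPM to 0 and 0.501 TPM (-2.13 ± 0.40, adjusted p = 0.0123), and Foxd2 from 6.73 and 3.92 TPM to 0.00572 and 0.0415 TPM. Pax6os1 went from 3.47 and 1.27 TPM to 0.308 and 0.222 TPM (-1.33 ± 0.35, adjusted p = 0.037), while Pax6 went from 257 and 181 TPM to 78.5 and 33.5 TPM. Wt1os went from 2.22 and 2.84 TPM to 0.409 and 1.10 TPM (-1.03 ± 0.29, adjusted p = 0.0414). The groups did not overlap in any of these 3. Foxd2os lost its call without NPC replicate 1 or NC replicate 1 (adjusted p of 0.0613 to 0.0886), Pax6os1 whichever library but NPC replicate 2 was left out (0.0838 to 0.147), and Wt1os whichever library but NC replicate 2 was left out (0.0724 to 0.184).

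The opposite-strand RNAs of Hoxb5 and Hoxd3 had lower means in NC than in NPC, which their partners did not, but the NC libraries differed widely from each other. Hoxb5os was at 15.8 TPM in NC replicate 1 and 101 in replicate 2, both below the NPC values of 192 and 304, whereas Hoxb5 was at 253 and 229 TPM. The change of Hoxb5os was not called (adjusted p = 0.0513). Its difference from that of Hoxb5 was -2.94 ± 0.80 on the log2 scale (adjusted p = 0.0465), and this call was lost whichever library but NC replicate 2 was left out (0.0807 to 0.204). It was also lost with log2(TPM + 0.1), without a filter, without the variance trend, with the libraries of these 2 groups only and with a pair trend (0.0538 to 0.0912). Hoxd3os1 stood at 1.28 and 21.3 TPM in NC after 27.7 and 41.3 in NPC, not called (adjusted p = 0.126), with Hoxd3 at 276 and 208 TPM. In both pairs NC replicate 1, the library with higher sums of neural progenitor and astrocyte markers, had the lower value. Nes, a progenitor marker, went the other way from those sums, at 84.2 and 120 TPM in NC replicates 1 and 2. The part of cell composition in the values of both pairs was not tested.

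Over the whole course, NC against mESC, 74 of the 116 were called, 58 higher and 16 lower, 63.8% of the members where 59.9% of all tested genes were called, 37.8% higher and 22.1% lower. The stage of highest mean was NC for 65 members, NPC for 30 and mESC for 21, or 56.0%, 25.9% and 18.1%, where the shares over all tested genes were 46.7%, 21.0% and 32.3%. By role of the partner, 8 rose and 3 fell of the 14 homeobox members, 15 and 1 of the 24 opposite other transcription and chromatin factors, 5 and 6 of the 16 opposite signalling genes, 14 and 4 of the 26 opposite neuronal and membrane genes, and 16 and 2 of the other 36. Lhx1os, with 182 and 212 TPM in NC after 0 in both mESC libraries, had the smallest adjusted p among the members (1.36e-05). Hoxd3os1 was called at 0.0453, and lost the call whichever library but NC replicate 1 was left out (0.0595 to 0.215). The median shift of all genes was 0.31 on the log2 scale here, and scalings that bring it near 0 gave 54 members higher and 19 lower with median-of-ratios factors (shift 0.05), and 42 higher and 19 lower with quantile normalization (shift -0.05).

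Opposite-strand genes tended to change with their partners. From mESC to NPC both genes were called in the same direction in 33 of the 111 pairs, 25 higher and 8 lower, and in opposite directions in 1. As shares these are 29.7% and 0.901%, beside 14.1% and 4.05% of 6130 other pairs of tested genes on opposite strands whose bodies overlap or lie within 5000 bases. From NPC to NC the counts were 11 and 0, beside 6.22% and 1.44% of the other pairs. From mESC to NC they were 50 and 5, beside 27.7% and 10.4%. The 3 comparisons share libraries and are not independent of each other. Without mESC replicate 1, mESC replicate 2 or NPC replicate 2 the count of 33 was 18, 20 or 17. The count of 11 was 1 without NPC replicate 1, 3 without NPC replicate 2 and 4 to 6 without 1 of the others.

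**Figure D2:**
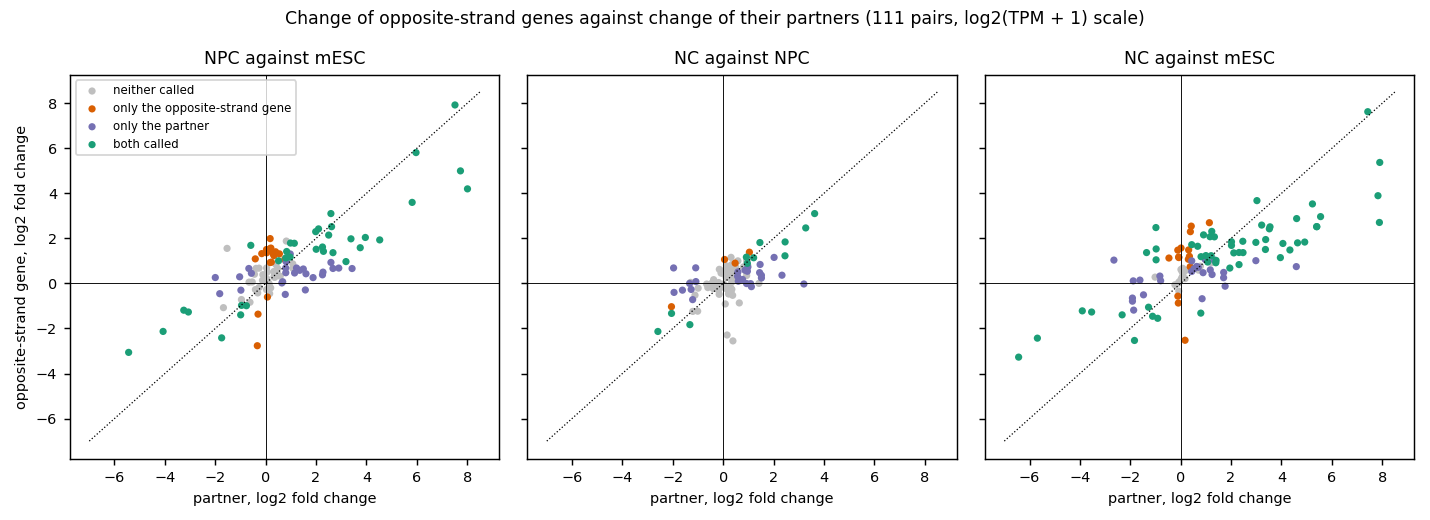
Log2 fold change of the opposite-strand gene (vertical axis) against that of its partner (horizontal axis) for the 111 pairs in each comparison, on the log2(TPM + 1) scale, with 1 point per pair coloured by which genes were called and a dotted line of equal change. Most green points, where both genes were called, lie in the lower left and upper right of their panel.

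Signs were counted over all pairs, called or not. The log2 fold changes of the 2 genes had the same sign in 89 of 111 pairs from mESC to NPC (80.2%), in 80 from NPC to NC (72.1%) and in 91 from mESC to NC (82.0%), where the other opposite-strand pairs had 62.8%, 60.7% and 63.7%. Across the 111 pairs Pearson's r between the changes was 0.801, 0.614 and 0.766, and across the other pairs 0.382, 0.315 and 0.335. Spearman's rho, which uses ranks and gives less weight to extreme pairs, was lower, at 0.656, 0.575 and 0.692. Across the other pairs it was 0.31, 0.28 and 0.318. These correlations are across genes, which are not independent replicates, and both genes of a pair come from the same libraries. Some partners have several opposite-strand genes, and with 1 pair per partner, 106 in all, r was 0.803, 0.617 and 0.769.

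Where exons of a pair overlap, reads of both strands fall on the same bases, and no source used here gives the strand setting of the authors' quantification, so reads of a gene and its opposite-strand partner cannot be told apart there. Of the 116 tested members 36 share no exonic base with their partner and 27 share at least 20%, with a median of 7.19% and a maximum of 56.8%. In the 35 pairs without a shared exonic base, r was 0.635, 0.642 and 0.656 in the 3 comparisons and the same sign was found in 26, 22 and 24 pairs. Spearman's rho in these pairs was 0.533, 0.523 and 0.52. In the 25 pairs with at least 20% shared, r was 0.897, 0.71 and 0.892. The 4096 other opposite-strand pairs without shared exonic bases had r of 0.319, 0.285 and 0.29. In 25 pairs whose opposite-strand gene is clear of the exons of every other gene, r was 0.762, 0.412 and 0.697, with both genes called in the same direction in 8, 3 and 10 pairs and in opposite directions in 0, 0 and 2.

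By arrangement, the 15 tail-to-tail pairs had r of 0.87, 0.85 and 0.886, the 38 pairs with one gene inside the other 0.855, 0.558 and 0.836, and the 58 head-to-head pairs 0.76, 0.571 and 0.688. The 42 head-to-head pairs with 5′ ends within 1000 bases had 0.691, 0.673 and 0.698. The pairs with close starts did not have the highest values. Differences between these sets were not tested.

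**Figure D3:**
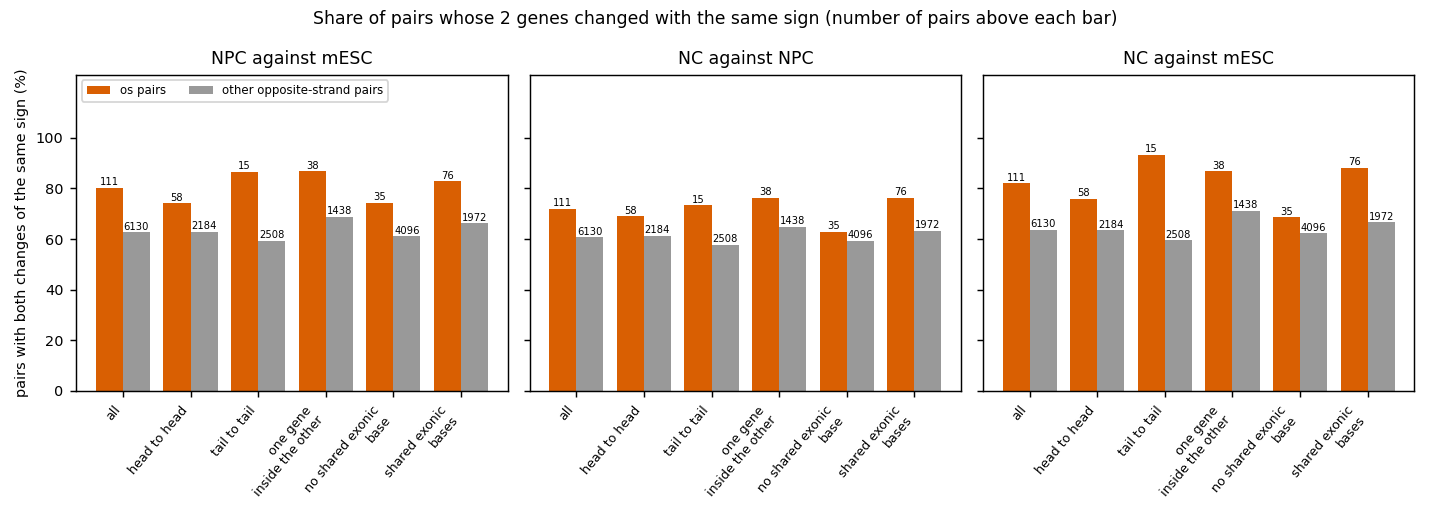
Share of pairs, in percent, whose 2 log2 fold changes had the same sign, for the os pairs (orange) and the other opposite-strand pairs (grey), by arrangement and exon sharing, with the number of pairs above each bar. The orange bar is above the grey one in every set and comparison, and the gap is smallest for NC against NPC in pairs without a shared exonic base, with 22 of 35 pairs against 59.4%.

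A fit of the difference between the 2 genes asked whether a pair changed by unequal amounts, with the adjustment over all 6292 opposite-strand pairs. From mESC to NPC 35 of the 111 pairs differed, 31.5%, beside 34.1% of all pairs and 34.2% of the pairs without such names, with the opposite-strand gene ahead in 18 and the partner in 17. From NPC to NC 12 differed (10.8%, beside 17.4% and 17.6%), and from mESC to NC 57 (51.4%, beside 49.1% and 49.2%). Without NPC replicate 1 the first 2 counts were 15 and 0, without NPC replicate 2 the second was 2, and without mESC replicate 1 the first was 23. The second was also 8 when either mESC library was left out, 4 without NC replicate 1 and 7 without NC replicate 2. The opposite-strand gene is usually the less abundant of the pair, and a pseudocount of 1 TPM shrinks changes of low genes more, so each difference named here was also taken with 0.1 TPM.

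Atad3aos (chr4:155761178-155769264, plus strand) went against its partner in both comparisons with mESC. From NPC to NC neither gene was called (adjusted p = 0.681 for Atad3aos and 0.0749 for Atad3a). It was at 0.367 and 0.297 TPM in mESC, 3.01 and 3.60 in NPC, and then 3.21 and 2.52 in NC. Atad3a, an ATPase of the mitochondrial inner membrane, was at 186 and 178, 123 and 119, and 86.3 and 98.7 TPM. The groups of mESC and NPC did not overlap for either gene. The log2 fold changes from mESC to NPC were 1.69 ± 0.25 (adjusted p = 0.00266) and -0.59 ± 0.13 (adjusted p = 0.0126), and their difference was 2.28 ± 0.28 (adjusted p = 0.00151). Without NPC replicate 1 or NPC replicate 2 the fall of Atad3a was no longer called (adjusted p of 0.083 to 0.109), while the difference was. The pair shares no exonic base, though 9.88% of the exonic bases of Atad3aos lie in exons of another gene on the other strand.

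Besides Atad3aos, 4 pairs were called in opposite directions from mESC to NC. Brip1os (chr11:86201370-86304443, plus strand) was at 16.9 and 12.4, 37.1 and 37.9, and 29.3 and 32.8 TPM in mESC, NPC and NC, and the helicase gene Brip1, of DNA repair, at 5.86 and 5.94, 7.60 and 7.33, and 2.22 and 2.82 TPM. The changes from mESC to NC were 1.05 ± 0.19 (adjusted p = 0.00392) and -0.98 ± 0.24 (adjusted p = 0.0115), with a difference of 2.02 ± 0.29 (adjusted p = 0.00127). Smc2os (chr4:52430285-52438965, minus strand) was at 0 in both tables of mESC and had 0.653 and 0.549 TPM in NPC and 1.57 and 1.60 in NC (adjusted p = 0.0023 for NC against mESC). Its partner Smc2, a condensin subunit needed for chromosome packing at mitosis, fell from 64.0 and 78.7 TPM in mESC to 25.5 and 28.9 in NC (-1.35 ± 0.17, adjusted p = 0.000803). Neither Brip1os nor Smc2os shares an exonic base with its partner, but 20.2% of the exonic bases of Brip1os lie in opposite-strand exons of other genes.

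Nr6a1os (chr2:38823257-38852370, plus strand) rose through both steps, from 0.409 and 0.472 TPM in mESC to 3.70 and 4.29 in NPC and 6.31 and 7.84 in NC. Nr6a1 was at 26.7 and 21.0, 59.8 and 38.3, and 8.73 and 15.1 TPM, highest in NPC. The difference between the genes was not called from mESC to NPC (0.81 ± 0.38, adjusted p = 0.149) and was 2.66 ± 0.38 from NPC to NC (adjusted p = 0.00756, and 0.0692 without NPC replicate 1). Frs3os (chr17:47699971-47701996, minus strand) fell from 5.09 and 3.48 TPM in mESC to 0.956 and 1.24 in NC (-1.32 ± 0.27, adjusted p = 0.006). Frs3, an adaptor of FGF receptors, was at 21.3 and 14.7 TPM in mESC and 39.0 and 25.4 in NC (0.80 ± 0.27, adjusted p = 0.0391). Exons of Frs3 hold 47.8% of the exonic bases of Frs3os, and reads of the 2 genes cannot be told apart there. The fall of Nr6a1 from mESC to NC (adjusted p = 0.0349) was not called without mESC replicate 1, mESC replicate 2 or NC replicate 1 (0.105 to 0.196), and neither was the rise of Frs3 whichever library but NC replicate 2 was left out (0.0524 to 0.207). The differences of both pairs from mESC to NC, 3.46 ± 0.38 (adjusted p = 0.000453) and -2.12 ± 0.35 (adjusted p = 0.00245), held whichever library was left out.

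**Figure D4:**
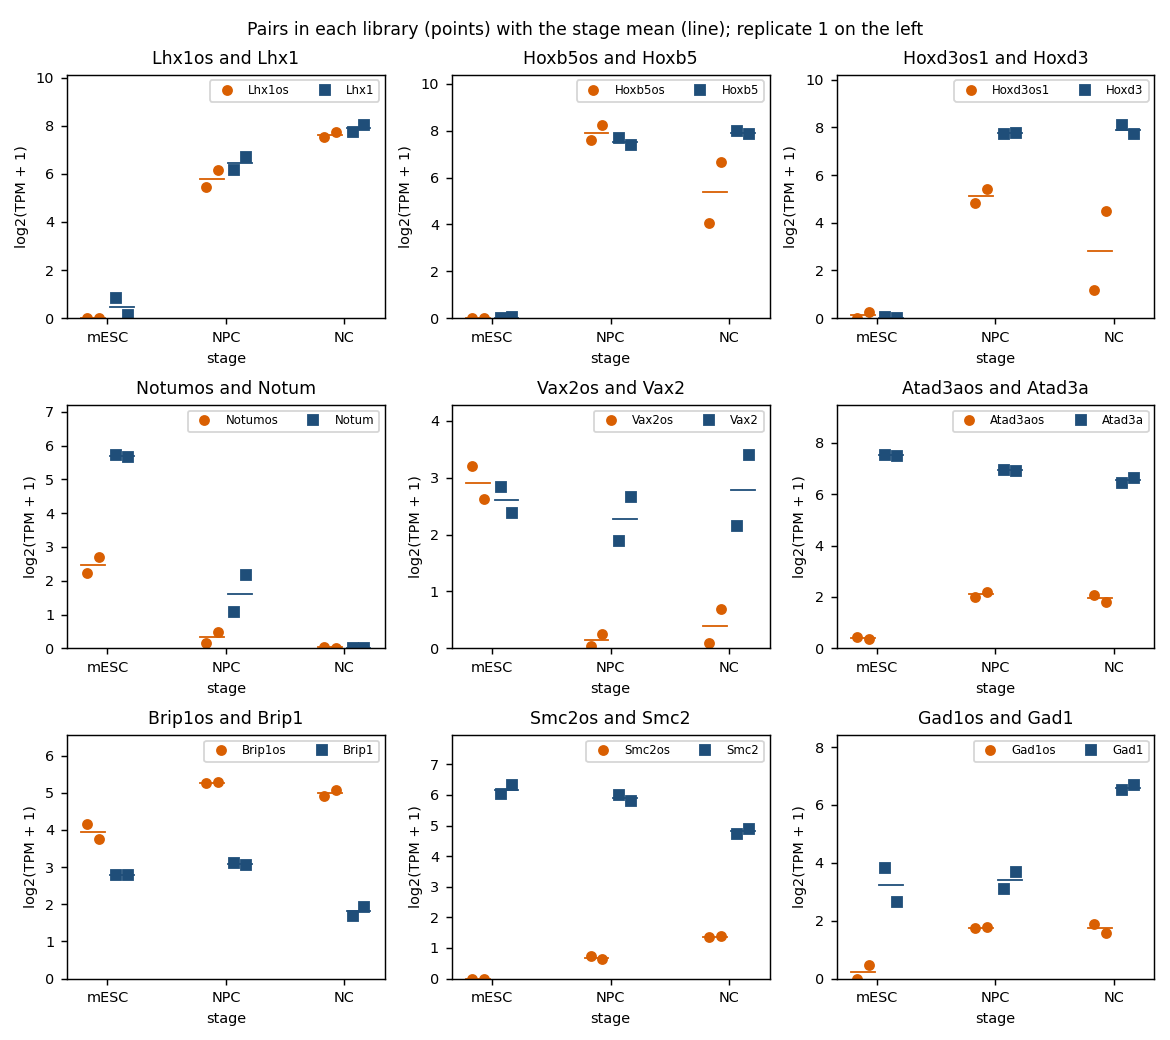
Log2(TPM + 1) of 9 opposite-strand genes (orange circles) and their partners (blue squares) at each stage, with 1 point per library, replicate 1 on the left, and a line at the stage mean. Lhx1os and Lhx1 rise together, Atad3aos, Brip1os and Smc2os end above their mESC level while their partners end below it, and the NC points of Hoxb5os and Hoxd3os1 lie far apart.

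In further pairs one gene changed and the other was not called. Vax2os fell from mESC to NPC while Vax2 was at 6.14 and 4.18 TPM in mESC, 2.68 and 5.34 in NPC, and then 3.45 and 9.56 in NC (-0.33 ± 0.48, adjusted p = 0.629). The difference was -2.43 ± 0.38 (adjusted p = 0.00359) and held with a pseudocount of 0.1 TPM and whichever library was left out. Rab26 fell from 13.1 and 6.77 TPM to 2.05 and 1.25 TPM while Rab26os was not called (0.26 ± 0.30, adjusted p = 0.53), a difference of 2.26 ± 0.33 (adjusted p = 0.00263). The fall of Rab26 itself (adjusted p = 0.00862) was not called without mESC replicate 1 or NPC replicate 2 (0.0607 to 0.0728), while the difference was. Tbx3os1, opposite a T-box factor, was at 2.08 and 0.0967 TPM in mESC and 3.09 and 6.14 in NPC, and Tbx3 at 38.2 and 20.4 and at 7.24 and 11.2 TPM. Neither change was called, at adjusted p of 0.0663 and 0.0846, but their difference was (3.09 ± 0.44, adjusted p = 0.0026).

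Several partners of neuronal function rose further than their opposite-strand genes. Srrm4 rose from 2.75 and 0.959 TPM in mESC to 24.3 and 32.7 in NPC while Srrm4os was at 5.95 and 3.22 and then 6.35 and 8.99 TPM, a difference of -2.77 ± 0.27 (adjusted p = 0.000696) that held in every alternative. From mESC to NC the pairs of Srrm4os, Kcnd3os and Pcsk2os1, the last opposite a prohormone convertase gene, all differed in this direction (adjusted p = 0.000247, 0.000756 and 0.000236), also with 0.1 TPM. Gad1os (chr2:70489940-70563357, minus strand), which shares no exonic base with any other gene, was at 0 and 0.370 TPM in mESC, 2.37 and 2.41 in NPC, and then 2.72 and 1.98 in NC. Gad1, which makes the transmitter GABA, was at 13.0 and 5.27, 7.48 and 12.0, and 89.8 and 102 TPM. So Gad1os was called at the first step (1.53 ± 0.28, adjusted p = 0.00579) and Gad1 at the second (3.20 ± 0.40, adjusted p = 0.00444, and 0.0549 without NPC replicate 1). Their difference from NPC to NC was -3.23 ± 0.56 (adjusted p = 0.012), and it was lost without NPC replicate 1 or NC replicate 2 (0.0601 to 0.0872) and with 0.1 TPM (0.117).

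Differences of other pairs depended on the pseudocount. Notumos fell less than Notum from mESC to NPC (1.94 ± 0.39, adjusted p = 0.00924, and 0.368 with 0.1 TPM), and Nphs1os less than Nphs1 (2.38 ± 0.53, adjusted p = 0.0137, and 0.213). Irx3os and Prox1os rose less than their partners (adjusted p = 0.00717 and 0.00144, and 0.425 and 0.161). Without NPC replicate 1 the difference of Notumos had an adjusted p of 0.0632 and that of Irx3os 0.0541, and that of Nphs1os was lost without mESC replicate 1 or NPC replicate 1 (0.0591 to 0.0741). For Hoxb3os and Hoxb3 the difference held with both pseudocounts (adjusted p = 0.000323).

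For 60 tested members RefSeq on GRCm38.p6 gives a promoter window, 250 bases before to 50 after a start within 300 bases of the 5′ end in the tables. In 14 of these the partner's 5′ end lies in the same window. The median ratio of observed to expected CpG was 0.909 in those 14 and 0.507 in the other 46, beside 0.384 over all 32851 windows of that reference. Searched on both strands, GGGCGG was present in 11 of the 14 (78.6%), in 39.1% of the 46 and in 35.7% of all windows. TATAAA was present in 2 of the 60 (3.33%), beside 13.6% of all windows. CCAAT was present in 36.7% and 37.4% of the same sets, CACGTG in 11.7% and 7.15%, ATGCAAAT in 0 of the 60 and 1.74%, and the direct repeat of AGGTCA spaced by 5 bases in 0 of the 60 and 0.00913%. These matches describe the letters of the windows only.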

How the data were processed

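RNA of E14TG2a cells was sequenced on an Ion Proton from poly(A)-enriched, rRNA-depleted RNA, per the labels' protocols. The submitters' processing notes name the build mm10 and, without settings, StringTie 2.1.5, STAR 2.7.9a, cutadapt 3.4, FastQC, DESeq2 and R 4.0.3. Per the file headers, the authors deposited StringTie gene tables with coverage, FPKM and TPM values. TPM was analysed here. Coverage divided by FPKM served to estimate the aligned bases. There are no read counts, so no counting interval can be given. Between 2 and 9 repeated lines per table were summed.

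Groups came from the sample titles, since the cell type label reads stem cells for all 6. The test took genes that reached 1 TPM in 2 or more of the 6 libraries, and used limma 3.58.1 (R 4.3.3, lmFit and eBayes with trend) on log2(TPM + 1), 1 coefficient per group, without a replicate block, two-sided, with Benjamini-Hochberg adjustment over 20232 genes and a threshold of 0.05. Every fold change is on that scale, which understates changes of low genes, and no fold is given against a stage listed at 0. Values after ± are standard errors. Pairs were tested with the same model on the per-library difference, adjusted over 6292 pairs of opposite-strand neighbours. On simulated data from these libraries' values, for NPC against mESC, 36 of 100 genes changed by 1 on the log2 scale were recovered. Of 100 changed by 2, 96 were recovered among 20232, with 2.22% of calls false. In that simulation genes of similar abundance shared a smoothed spread and no further genes changed, whereas 40.0% of all tested genes were called in the data. These shares therefore do not give the recovery or the false calls of the real comparison.

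Opposite-strand genes were named by rule: the 8 highest and 8 lowest called changes per comparison, the 8 of highest mean, all tested homeobox members, pairs called in opposite directions, and the 6 largest called pair differences per comparison. Of the genes so named 1 is not reported here. Partner roles were assigned by name. Members, lists and rules were chosen with earlier results of these data known. Exons and biotypes are from GENCODE vM21, where 276 of the 294 members have the same position. Alternatives covered the pseudocount, filter, scaling, variance trend, replicate block, libraries fitted and each library left out; a pair trend on the mean difference was added after seeing the data.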

Additional observations from a re-analysis of the deposited data

How the results depend on the processing

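The main fit did not pair libraries, since the labels do not say how the cultures were separated, and a replicate block was fitted only as an alternative. Deviations of same-numbered libraries had small correlations (0.0455, -0.0819 and -0.0703 over 20232 genes), which cannot show whether the cultures were paired. With a replicate block, the pairs that differed from NPC to NC were 7 in place of 12. No other count moved by over 1.5 times under the block.

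With log2(TPM + 0.1) 3 pairs differed from NPC to NC and 35 from mESC to NC. Among the named genes, no called change of an opposite-strand gene turned direction, but 3 pair differences did with that pseudocount: Pax6os1 minus Pax6 from mESC to NPC (0.0525, adjusted p = 0.959), and from mESC to NC Fancd2os minus Fancd2 (-1.71, adjusted p = 0.046) and Kcnmb4os2 minus Kcnmb4 (1.16, adjusted p = 0.166). Without a filter 78, 32 and 113 pairs differed in the 3 comparisons (NPC against mESC, NC against NPC, NC against mESC), 2, 1 and 3 were called in opposite directions, and NC against NPC had 3166 genes, 8 opposite-strand genes and 3 pairs called in the same direction. With at least 5 TPM, where 39 members were tested, 24, 6 and 32 members were called, 14, 6 and 24 pairs differed, 16, 5 and 20 were called in the same direction and 0 (NPC against mESC) and 2 (NC against mESC) in opposite ones. Without the variance trend NC against NPC had 23 members and 2 opposite pairs. With the libraries of 2 groups only it had 7 members and 5 pairs in the same direction, and NC against mESC 3 opposite pairs. Median-of-ratios scaling moved the split of members called from NPC to NC from 11 higher and 4 lower to 9 and 7, and quantile normalization to 7 and 9. Over all genes the share of calls that were higher was 65.0%, 60.1% and 63.2% as deposited, 52.7%, 54.6% and 52.3% with the former and 51.2%, 47.7% and 47.2% with the latter. The cause was not tested.

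Leaving out 1 library at a time, which leaves a group with 1 library assumed to vary like the others, gave 4032 to 8484 genes, 30 to 60 members, 15 to 38 differing pairs, 17 to 33 pairs in the same direction and 0 to 1 opposite for NPC against mESC. It gave 309 to 4156, 1 to 12, 0 to 8, 1 to 6 and 0 to 1 for NC against NPC, and 9499 to 11187, 63 to 72, 39 to 46, 40 to 47 and 3 to 5 for NC against mESC. Of the calls of named opposite-strand genes, 20 of 32 (NPC against mESC), 1 of 12 (NC against NPC) and 31 of 35 (NC against mESC) held in every alternative, as did 6 of 18, 0 of 9 and 15 of 27 pair differences. Of the 116 tested members 48 are listed at 0 in at least 1 library, and the part of depth was not tested.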

Other observations

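By the same rule on names, other endings gave few antisense genes. Of the tested genes ending in as or ot whose remaining name is a gene, Kcnq1ot1, Znrd1as and Dlx1as lie on the strand opposite to that gene. Kcnq1ot1, the imprinted RNA within the potassium channel gene Kcnq1, was at 2.50 and 2.84 TPM in mESC, 6.26 and 5.96 in NPC, and then 6.11 and 12.3 in NC (NC against mESC 1.41 ± 0.34, limma adjusted p = 0.0112). Znrd1as was at 15.7 and 22.8, 8.51 and 7.76, and 1.54 and 7.61 TPM (-2.09 ± 0.55, adjusted p = 0.0157). Dlx1as, opposite a homeobox gene of GABAergic neurons, was at 0.934 and 2.42, 2.82 and 1.79, and 2.32 and 2.91 TPM and was not called (adjusted p = 0.272 for NC against mESC).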
